A study of Mus musculus with 150 samples.

Results

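Cytochrome P450 genes of the mouse were represented by 50 of the 12422 non-control probe sets of the array. These were the probe sets whose gene symbol begins with Cyp and a digit, without Cyp11a1, Cyp11b1, Cyp17a1 and Cyp21a1, whose enzymes make steroid hormones in the adrenal gland and gonads. Of the 50 probe sets, 43 carried a single symbol and named 37 genes, and 7 carried symbols of several P450 genes. The latter are described by their subfamily and not by a gene. The array names 32 members from families 1 to 3, 9 from family 4, and 9 from the families that act on sterols, bile acids and vitamins.

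Cytochrome P450 enzymes hold a heme group and insert an oxygen atom into small, mostly fat-soluble molecules. Those of families 1 to 3 are known for the oxidation of drugs and other foreign compounds in liver, many of them induced through nuclear receptors or the aryl hydrocarbon receptor. Family 4 enzymes hydroxylate fatty acids and their signalling derivatives, and the remaining families make or break down cholesterol, bile acids, vitamin D and retinoic acid. Microsomal P450s need electrons from a reductase or cytochrome b5, and mitochondrial ones from ferredoxin.

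The samples were total RNA from tissues of wild-type adult inbred mice, for which the labels name no treatment, hybridized to 150 one-colour arrays. The neural samples were 24 tissues of the strains 129, B6 and DBA on 100 arrays, and the body samples were 10 tissues with 1 array each of the strains 129, AJ, B6, C3H and DBA. Sex and age in weeks are not given, and many titles name a range of animals, so an array can be a pool. Nothing in the labels shows that arrays of a tissue came from separate animals throughout, so p-values measure the spread between these arrays. Whether less RNA per cell or fewer cells of a type lie behind a low value cannot be told apart in such bulk samples. Values are intensities on a linear scale, and the 75th percentile of an array lay between 165 and 184. The number of arrays limits the precision. All 7 probe sets of the hepatocyte marker list were highest in liver and all 8 of the kidney tubule list in kidney. Traces of other organs were present, however. Alb, the albumin gene, passed an intensity of 200 on 6 body arrays outside liver, among them C3H and DBA kidney at 1110 and 313. Kap, a kidney tubule gene, passed it on 7 arrays outside kidney, among them DBA liver at 623. Xist, which marks cells with an inactive X chromosome, stayed at or under 7.79 on the 10 liver and kidney arrays.

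The P450 genes formed a liver and kidney pattern, which the map of mean signal by tissue shows. Intensities under the floor of 10.4 were raised to it, and a mean was called past the filter if it exceeded 5.73 on the log2 scale, the median of all values. In liver 38 of the 50 members (76%) had a mean past the filter, against 45.1% of all probe sets. In kidney it was 23 members (46%), against 47.7% of all. Elsewhere fewer P450 probe sets passed, from 3 in spleen and superior colliculi to 12 in brown adipose tissue. These were 6%, 6% and 24% of the members, against 49.2%, 48.8% and 47.6% of all probe sets. Liver was the highest of the 10 body tissues for 34 members, kidney for 8 and another tissue for 8. These counts include members that lay under the filter everywhere. Of the members past the filter in at least 1 of the 34 tissues, 33 were highest in liver, 7 in kidney and 2 elsewhere. There were 15 members past the filter in liver and in no other of the 34 tissues. A further 8 passed it nowhere, and 20 lay at the floor on more arrays than not. All these counts are given without the share over all probe sets and are descriptions.

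**Figure D1:**
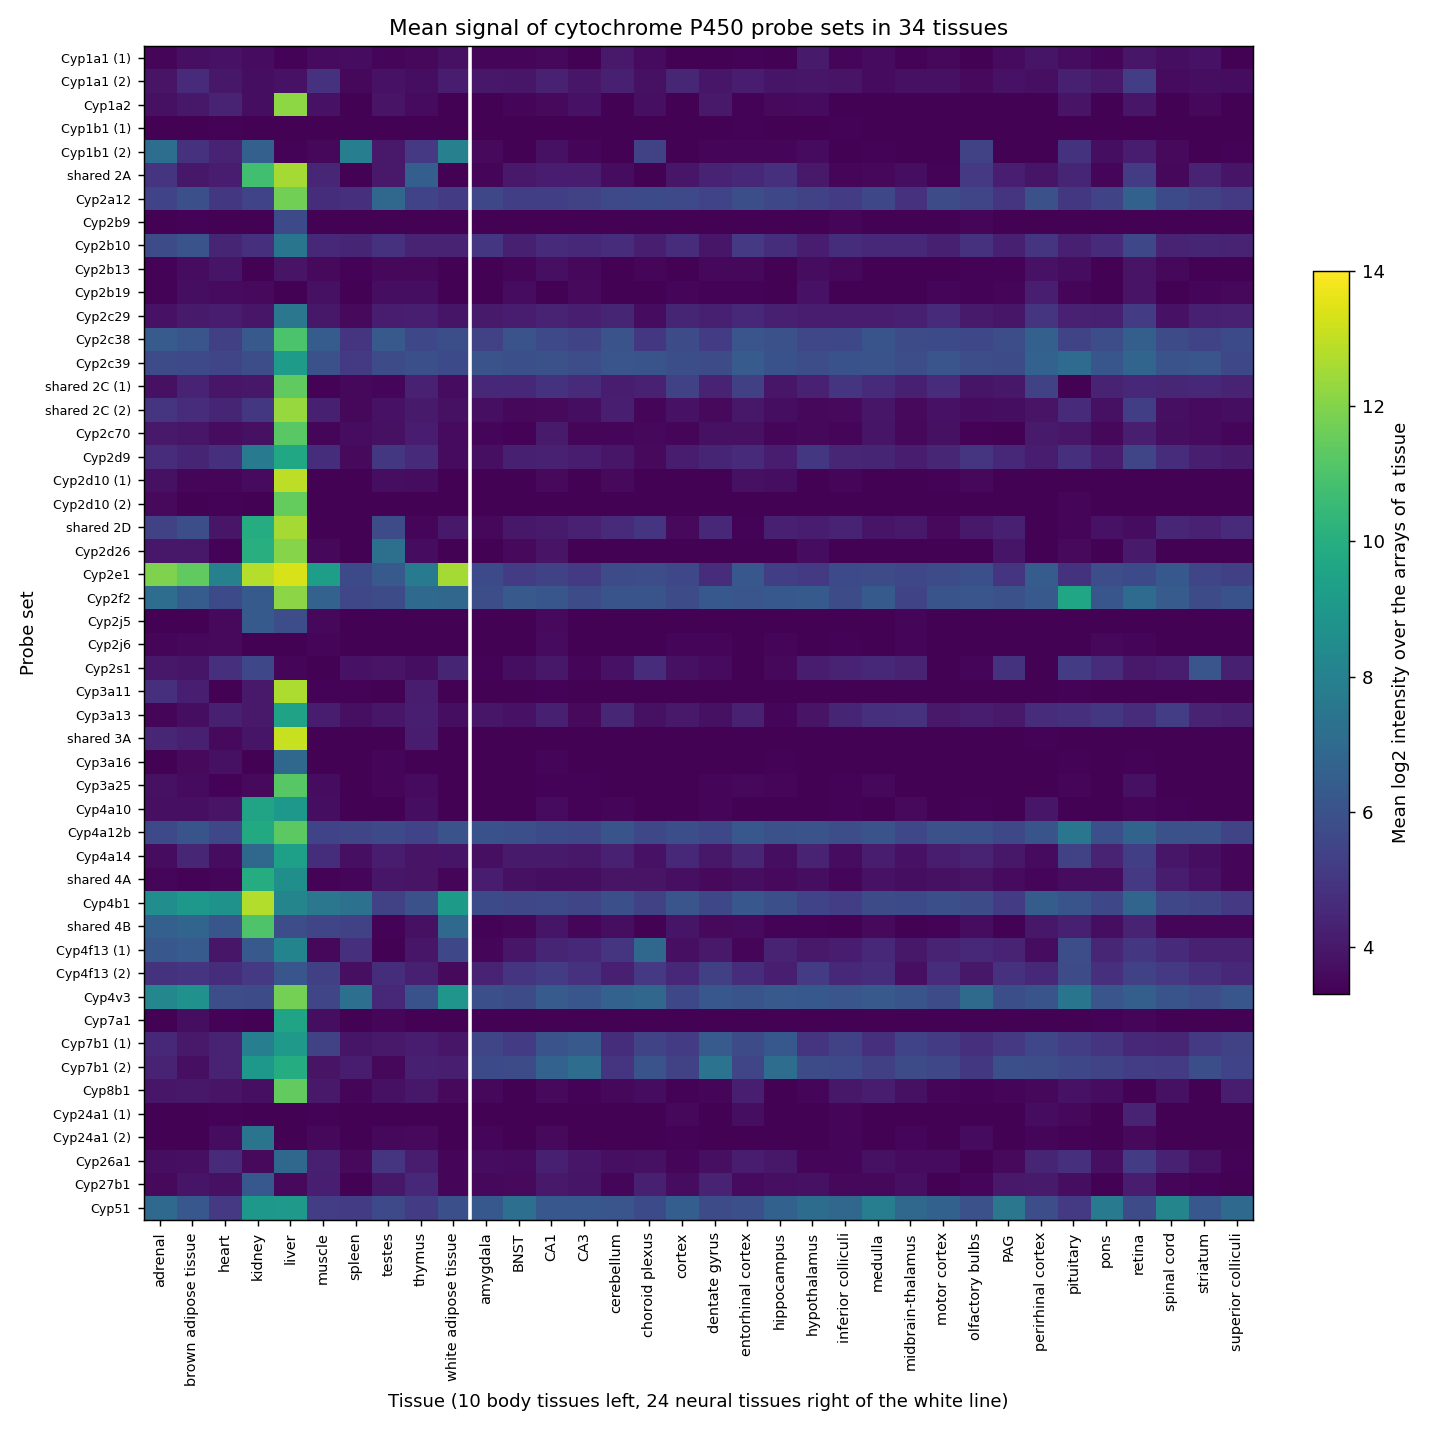
Mean log2 intensity of the 50 cytochrome P450 probe sets (rows, in order of gene name) in 34 tissues (columns), with 10 body tissues left and 24 neural tissues right of the white line. The liver column is bright for most rows, the kidney column for fewer, and Cyp2e1 stays bright in adrenal and adipose tissue. Numbers in brackets tell probe sets of the same name apart, and rows are not comparable in level with each other.

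Liver was set against the other 9 body tissues, averaged, in a limma model of the 50 body arrays with strain as a term. Calls needed a Benjamini-Hochberg adjusted p under 0.05 and at least 1 log2 unit between the means. Among the 41 members tested, 36 were called higher in liver, where 13.2% of all 8921 tested probe sets were. A single member, Cyp1b1, was called lower, where 20.2% of all were. The tested members had to pass the filter, which many do only through liver, so the count over tested members is a description. Over all 50 members without any filter, the median log2 difference of liver was 4.37, and 38 of the 50 differences lay above 0. The median over all 12422 probe sets was -0.18, with 31.8% above 0. In 25 members every liver array exceeded all 45 other body arrays, against 5.09% of all tested probe sets.

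The drug-metabolizing families 1 to 3 supplied 23 of the 36 calls, from 24 members tested. Cyp1a2, which oxidizes caffeine and planar aromatic amines, read 6240, 4250, 2630, 4970 and 5890 in the livers of 129, AJ, B6, C3H and DBA, the strain order used throughout. All 45 other body arrays stayed at or under 33.5, so the groups were far apart. The difference was 8.40 ± 0.25 (log2 ± SE, limma adjusted p = 2.8e-29). Cyp1a1, its close relative induced by aryl hydrocarbons, did not pass the filter in any body tissue, and its liver arrays read at most 17.4 with either probe set.

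Cyp3a11, a steroid and drug hydroxylase regarded as a mouse counterpart of the main human liver P450, read 7570, 7850, 6730, 6760 and 4430 in liver. Its highest value elsewhere in the body was 236, on the DBA adrenal array, where Alb read 1960. The part of liver RNA in that value was not tested. Cyp3a11 was higher in liver by 8.89 ± 0.47 (limma adjusted p = 1.74e-20), and a probe set shared within subfamily 3A by 9.34 ± 0.48. Cyp3a25 read 1900, 2680, 1930, 2980 and 2610 in liver and at most 28.3 on the other body arrays, a difference of 7.66 ± 0.18 (limma adjusted p = 2.59e-33). Cyp3a13 was higher in liver by 5.56 ± 0.29 and Cyp3a16 by 3.41 ± 0.19.

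Subfamily 2C, which oxidizes drugs and arachidonic acid, was also higher in liver. Cyp2c70 was even across strains, at 2550, 2310, 2240, 2350 and 2820, and did not exceed 27 on any other body array. Its difference was 7.47 ± 0.18 (limma adjusted p = 3.61e-33). Probe sets shared within subfamily 2C were higher by 8.06 ± 0.28 and 7.58 ± 0.28, and Cyp2c38, Cyp2c29 and Cyp2c39 by 5.07 ± 0.22, 3.58 ± 0.25 and 3.47 ± 0.32. Cyp2f2, an enzyme that activates naphthalene in airway cells, was higher in liver by 5.77 ± 0.30, and Cyp2a12 by 6.29 ± 0.22. Cyp2b10, the classic target of phenobarbital, was higher by 2.64 ± 0.38 with arrays from 31.7 in C3H to 517 in DBA. Of the non-passing members, Cyp2b13, Cyp2b19 and Cyp2j6 had liver means of 3.85, 3.38 and 3.38 on the log2 scale, the last 2 at the floor.

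**Figure D2:**
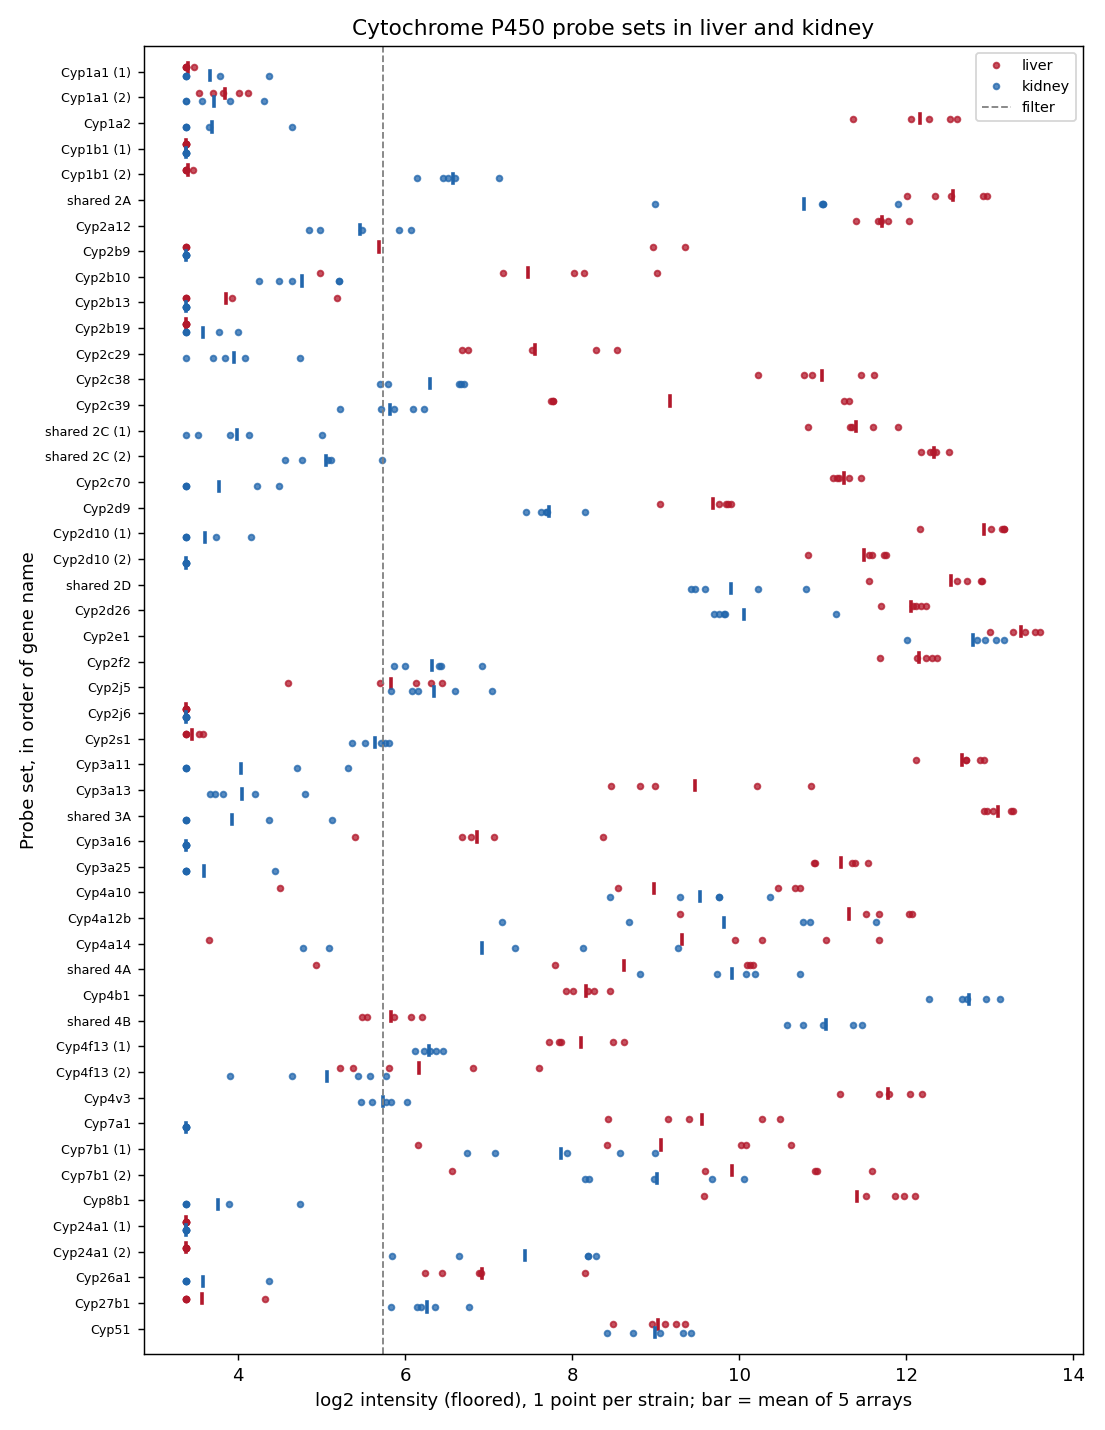
Log2 intensity of each P450 probe set on the 5 liver arrays (red) and 5 kidney arrays (blue), 1 point per strain, with the mean as a bar and the filter as a dashed line. Cyp2d10, Cyp1a2 and Cyp7a1 lie high in liver and at or near the floor in kidney, Cyp4b1 and Cyp24a1 show the opposite, and Cyp51 and Cyp2e1 overlap.

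The Cyp2d genes, which lie together on chromosome 15, showed unlike members within a subfamily. Cyp2d10 read 9220, 9060, 4610, 9230 and 8260 in liver with the first probe set (101287_s_at) and 3410, 3090, 1820, 3460 and 3000 with the second (98612_at). In kidney the same probe sets read at most 17.8 and 3.19. The liver arrays lay far above the kidney arrays with both, and the liver minus kidney differences were 9.33 ± 0.27 and 8.11 ± 0.14 (limma adjusted p = 2.83e-29 and 1.36e-37). With the second probe set all 5 kidney arrays lay at the floor, so liver was at least 277-fold higher.

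Cyp2d26, by contrast, read 832, 2290, 913, 870 and 901 in kidney and 4430, 4340, 3320, 4630 and 4840 in liver. Both organs lay well above the other body tissues, and liver exceeded kidney in every strain. It was higher than the other 9 tissues by 7.33 ± 0.22 in liver and 5.10 ± 0.22 in kidney (limma adjusted p = 5.56e-29 and 5.2e-23), and liver exceeded kidney by 2.01 ± 0.30. Cyp2d9, known as a male-type steroid hydroxylase, read 197, 285, 208, 174 and 206 in kidney and 869, 935, 532, 956 and 920 in liver. Its differences from the other 9 tissues were 4.90 ± 0.24 in liver and 2.72 ± 0.24 in kidney. A probe set shared by several genes of subfamily 2D was higher in both organs, by 7.52 ± 0.29 in liver and 4.59 ± 0.29 in kidney. These probe sets can pick up near-identical relatives, so the split among Cyp2d genes is uncertain.

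The upstream sequences of these 3 genes are shown because their probe sets differ in kidney while the proximal promoters are similar in part. They are the 150 bases before the transcription start in RefSeq on GRCm38.p6, at chr15:82452227-82452376 (plus strand), chr15:82407195-82407344 (minus strand) and chr15:82794246-82794395 (minus strand). Capitals mark TATAAA or its reverse complement, which lies 28 to 31 bases before the start, and in Cyp2d26 also the reverse complement of GTTAAT, the short form of a site of the liver factor HNF1, 90 bases before it.
Cyp2d9: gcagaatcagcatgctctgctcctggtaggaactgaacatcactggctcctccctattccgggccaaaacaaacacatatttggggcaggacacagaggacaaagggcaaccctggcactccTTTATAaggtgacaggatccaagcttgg
Cyp2d10: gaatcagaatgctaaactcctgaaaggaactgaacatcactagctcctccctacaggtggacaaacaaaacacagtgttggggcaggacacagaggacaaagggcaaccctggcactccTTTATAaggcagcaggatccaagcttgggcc
Cyp2d26: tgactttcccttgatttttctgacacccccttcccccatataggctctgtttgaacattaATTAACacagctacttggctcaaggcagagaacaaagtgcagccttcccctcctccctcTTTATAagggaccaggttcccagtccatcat
Over aligned bases Cyp2d9 and Cyp2d10 were 85.7% identical, Cyp2d9 and Cyp2d26 66.7%, and Cyp2d10 and Cyp2d26 64.9%. A link between these sequences and the kidney signal, whose split among Cyp2d genes is uncertain, was not tested.

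A promoter entry of 300 bases, from 250 before to 50 after the start, was found for 31 of the 37 named genes, and 4 motifs were searched on both strands. TATAAA was present in 51.6% of the members' promoters, against 13.6% of all 32851. GTTAAT was present in 3.23% against 7.1%, and GCGTG, the core bound by the aryl hydrocarbon receptor, in 16.1% against 32.4%. AAAGTCCA, a sequence of the type bound by HNF4, was present in 12.9% against 1.25%. Its 4 genes were Cyp2c70, Cyp3a11, Cyp3a16 and Cyp8b1, each called higher in liver, as were 36 of the 41 tested members. A match is a run of letters and not evidence of binding.

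The bile acid and sterol enzymes were the next group. Cyp7a1, the rate-limiting enzyme of the classical pathway of bile acid synthesis, read 1240, 1440, 346, 677 and 568 in liver and at most 29.4 on the other 45 body arrays. All 5 kidney arrays lay at the floor, which made liver at least 72.2-fold higher than kidney. Its difference from the other 9 tissues was 6.09 ± 0.18 (limma adjusted p = 8.74e-30). Cyp8b1, the sterol 12-hydroxylase that leads to cholic acid, read 3740, 4030, 763, 2940 and 4420, again above every other body array, with a difference of 7.59 ± 0.28 (limma adjusted p = 2.94e-26). The start of Cyp8b1 carries both the HNF4-type run, 66 bases upstream, and a TATAAA run, 31 bases upstream, in capitals in this stretch at chr9:121916306-121916455 (minus strand).
Cyp8b1: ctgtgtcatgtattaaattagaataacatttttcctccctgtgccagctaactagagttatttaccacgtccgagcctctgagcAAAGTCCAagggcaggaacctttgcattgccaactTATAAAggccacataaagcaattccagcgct
Cyp7b1, which 7-hydroxylates oxysterols and neurosteroids, was shared by liver and kidney. It was higher than in the other 9 tissues by 5.31 ± 0.37 in liver and 4.31 ± 0.37 in kidney with 1 probe set (92898_at). The other (161345_f_at) gave 4.37 ± 0.35 and 3.04 ± 0.35. The liver minus kidney difference was 0.90 ± 0.49 with 92898_at and not called (limma adjusted p = 0.134). With 161345_f_at it was 1.19 ± 0.47 and called (limma adjusted p = 0.034). That call was lost in several alternatives, among them quantile normalization, at 0.91. Cyp51, the lanosterol demethylase of cholesterol synthesis, was higher by 2.99 ± 0.17 in liver and 2.94 ± 0.17 in kidney, and its liver minus kidney difference was 0.04 ± 0.23. Cyp26a1, which clears retinoic acid, was higher in liver by 2.93 ± 0.24.

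Kidney was called higher than the other 9 body tissues for 19 of the 41 members tested, where 11.4% of all tested probe sets were called. It was called lower for 2, Cyp4v3 and Cyp1a2, where 10.5% of all were. The Cyp1a2 difference of -1.02 ± 0.25 lay at the threshold, and was -0.98 and not called after quantile normalization. With the animal or pool named in the title as a random block it fell just short of the call. It also missed the call without any 1 of the 129, AJ, B6 or DBA kidney arrays and some arrays of other tissues, at -0.91 without DBA kidney. Unfiltered, the median difference of the 50 members in kidney was -0.02, and that of all probe sets was -0.10. The 19 calls were divided into 7 of 24 tested members of families 1 to 3, 7 of 9 of family 4 and 5 of 8 of the sterol and vitamin families. Of the calls, 3 had every kidney array above the 45 other body arrays, where 2.89% of all tested probe sets did, and these were both Cyp4b1 probe sets and Cyp24a1.

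Family 4 thus had 7 of its 9 tested members called in kidney. Cyp4b1, a fatty acid hydroxylase that also activates furans, read 8910, 7970, 4960, 6770 and 6490 in kidney and 293, 306, 243, 257 and 351 in liver. The organs did not overlap, and kidney exceeded liver by 4.58 ± 0.24 on the log2 scale (limma adjusted p = 2.58e-20). A probe set that Cyp4b1 shares with a pseudogene gave 5.20 ± 0.27 in the same direction. Cyp4a10, a hydroxylase of long-chain fatty acids, read 627, 1320, 869, 866 and 351 in kidney, and was higher there than in the other 9 tissues by 5.31 ± 0.42 (limma adjusted p = 1.96e-14). In liver it was higher by 4.71 ± 0.42, and the liver minus kidney difference of -0.54 ± 0.57 did not pass the test (limma adjusted p = 0.473). A probe set shared within subfamily 4A was higher by 5.79 ± 0.37 in kidney and 4.37 ± 0.37 in liver. It was also higher in kidney than in liver by 1.28 ± 0.50, a call that was lost without the DBA liver array, where the liver minus kidney difference was -0.37. It was also lost without the C3H liver, AJ kidney, DBA kidney or B6 kidney array, at differences of -1.08, -1.08, -1.22 and -1.25. Cyp4a12b was higher by 3.51 ± 0.39 in kidney and 5.17 ± 0.39 in liver. Cyp4a14 was higher by 2.31 ± 0.56 and 4.98 ± 0.56, although its DBA liver array, at 12.6, lay under 30 of the 45 other body arrays. Cyp4v3, a fatty acid hydroxylase of the eye and liver, was lower in kidney by 1.67 ± 0.17 and higher in liver by 5.05 ± 0.17. Cyp4f13 was called higher in liver with both probe sets, the first (104129_at) by 3.22 ± 0.22. The second (162058_f_at) read 194, 41.5, 55.9, 112 and 37.4 in liver (limma adjusted p = 5.98e-05). In kidney the first gave 1.20 ± 0.22 and was called, and the second gave 0.37 ± 0.34 (limma adjusted p = 0.342). The kidney call of the first and the liver call of the second were lost with a higher floor, set at the 40th instead of the 20th percentile of all values, at 0.54 and 0.94.

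The vitamin D enzymes Cyp24a1 and Cyp27b1 were each called higher in kidney. Cyp24a1, which degrades active vitamin D, read 293, 57.2, 292, 100 and 313 in kidney with 1 probe set (93435_at) and no more than 21.2 on the other 45 body arrays. All 5 liver arrays lay at the floor, so kidney was at least 16.6-fold higher than liver, and the difference from the other 9 tissues was 3.96 ± 0.19 (limma adjusted p = 9.93e-22). The other Cyp24a1 probe set (162070_r_at) was at the floor on all 10 liver and kidney arrays. Cyp27b1, which makes active vitamin D, read 82, 56.7, 109, 70.6 and 73 in kidney, and 1 of the 45 other body arrays exceeded the lowest of these. It was higher in kidney by 2.44 ± 0.27 (limma adjusted p = 3.01e-10). Among the body tissues Cyp24a1 (93435_at) and Cyp27b1 passed the filter in kidney alone. They were thus tested only through their high values there, and both calls are descriptions. Vdr, the gene of the vitamin D receptor, was higher in kidney by 4.31 ± 0.15 and 2.41 ± 0.19 with its probe sets, while in liver its differences were -0.63 ± 0.15 and -0.52 ± 0.19.

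Among other kidney genes of families 1 to 3, a probe set shared within subfamily 2A was higher by 5.51 ± 0.37 in kidney and 7.49 ± 0.37 in liver. Cyp2e1, which oxidizes ethanol and acetone, read 9210, 8610, 4120, 7350 and 7860 in kidney and 11900, 11000, 8190, 9940 and 12500 in liver. The organs overlapped, and their difference of 0.57 ± 0.45 did not pass the test (limma adjusted p = 0.32). Cyp2j5, a kidney-type epoxygenase of arachidonic acid, was higher by 2.65 ± 0.15 in kidney and 2.09 ± 0.15 in liver. The liver difference of Cyp2j5 was 0.74 and not called with the higher floor. Cyp1b1 was higher in kidney than in liver by 3.18 ± 0.35, and higher in kidney than in the other 9 tissues by 1.21 ± 0.26. That last difference was 0.97 without the liver arrays and 0.59 with the higher floor, and no longer called in either case. In the direct contrast 30 members were higher in liver, where 10.6% of all tested probe sets were, and 6 in kidney, where 14.8% were.

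Genes that act with the P450 enzymes were mostly higher in liver, and fewer of them in kidney. Of the 9 tested probe sets for partners of P450 enzymes and heme synthesis, 8 were higher in liver, where 13.2% of all tested probe sets were. The list's median difference was 2.13 against -0.30 over all tested. They were those of Pgrmc1 (3.47 ± 0.12), Cyb5r3 (2.50 ± 0.14), Cyb5a (2.25 ± 0.17), Alas1 (2.16 ± 0.14), Alas2 (2.13 ± 0.48), Fdx1 (1.84 ± 0.10) and both of Cyb5b (1.47 ± 0.10 and 1.03 ± 0.16). In kidney 3 were higher, Cyb5a by 1.85 ± 0.17 and Cyb5b by 1.35 ± 0.10 and 1.32 ± 0.16, and Alas2 was lower by 2.28 ± 0.48. The share called higher in kidney among all tested probe sets was 11.4%, and the list's kidney median was 0.59 against -0.18 over all. Alas2 is an enzyme of red blood cells, and its list holds both this gene and the housekeeping form Alas1.

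Of the 22 tested probe sets of receptors and transcription factors known to control P450 genes, 18 were higher in liver (13.2% of all were), with a median of 2.41 against -0.30 over all tested. Hnf4a, the nuclear receptor of the hepatocyte and proximal tubule, was higher by 5.19 ± 0.21 in liver and 4.41 ± 0.21 in kidney. The bile acid receptor Nr1h4 gave 3.44 ± 0.21 and 3.27 ± 0.21. Among the xenobiotic receptors, Nr1i3 was higher in liver by 4.85 ± 0.28, 3.24 ± 0.19 and 2.52 ± 0.15 with 3 probe sets and Nr1i2 by 2.76 ± 0.12. In kidney the same probe sets gave -0.27 to 0.06 and were not called. Other liver calls were Foxa2 (4.10 ± 0.15), Nr5a2 (3.72 ± 0.16 and 2.30 ± 0.16), Ppara (3.31 ± 0.36), Nr0b2 (2.95 ± 0.18), Cebpa (2.74 ± 0.20), Ahr (2.09 ± 0.22), Cebpb (1.82 ± 0.22), Rxra (1.75 ± 0.16 and 1.68 ± 0.15), Nr1h3 (1.59 ± 0.16) and Dbp (1.06 ± 0.27). In kidney 5 were higher, those of Vdr, Hnf4a, Nr1h4 and Dbp (1.00 ± 0.27), and Cebpb was lower by 1.20 ± 0.22. In kidney the list's median was -0.13, close to the -0.18 of all tested probe sets, 11.4% of which were called higher.

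In the other 8 body tissues few P450 genes stood out against a mean that held liver and kidney. Against the other 9 tissues, 6 of the 41 tested members were higher in at least 1 of the other 8 body tissues, where 65.2% of all tested probe sets were. Adrenal and brown adipose tissue had 4 members each, where 7.52% and 11.4% of all were called, white adipose tissue 3 (11.1%), spleen 1 (16.3%) and testes 1 (20%). Cyp2e1 read 5590, 8250, 6890, 5840 and 4550 in white adipose tissue and was higher there by 2.97 ± 0.33 (limma adjusted p = 5.33e-10). It was also higher in adrenal by 2.26 ± 0.33 and in brown adipose tissue by 1.65 ± 0.33. Cyp1b1, which hydroxylates estradiol and polycyclic hydrocarbons, read 264, 175, 282, 243 and 284 in white adipose tissue and 210, 138, 318, 236 and 341 in spleen. These groups overlapped each other and lay above all 5 liver arrays, which read at most 11. It was higher by 2.74 ± 0.26 in white adipose tissue, 2.68 ± 0.26 in spleen and 1.87 ± 0.26 in adrenal, and lower in liver by 2.31 ± 0.26. A further Cyp1b1 probe set (161368_r_at) lay at the floor on all 5 arrays of each of these 4 tissues.

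Cyp4v3 was higher in white adipose tissue by 1.84 ± 0.17, in brown adipose tissue by 1.65 ± 0.17 and in adrenal by 1.11 ± 0.17. The adrenal difference was 0.97 and not called without the arrays outside kidney with Kap above 200. Cyp4f13 (104129_at) was called in brown adipose tissue at 1.28 ± 0.22 and in adrenal at 1.10 ± 0.22, and both calls were lost with the higher floor, at 0.63 and 0.45. Cyp2b10 was called in brown adipose tissue at 1.06 ± 0.38 (limma adjusted p = 0.0159), with arrays of 135, 17.1, 60, 26.1 and 343. The 129 array of brown adipose tissue also read 2440 for Alb, and without the arrays with Alb above 200 the difference was 0.73 and not called. Without the 129 or the DBA array of brown adipose tissue it was 0.72 or 0.57, and not called either. Cyp2d26 was called in testes at 1.96 ± 0.22, with arrays of 114, 190, 131, 167 and 162, and this call was lost with the higher floor, at 0.85. Heart, muscle and thymus had no member called higher by limma, where 11.3%, 12.9% and 15.9% of all tested probe sets were. At an unadjusted p under 0.05 these tissues had 31, 30 and 27 of the 41 members in either direction, where 61.5%, 66.7% and 70.9% of all tested probe sets had one.

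**Figure D3:**
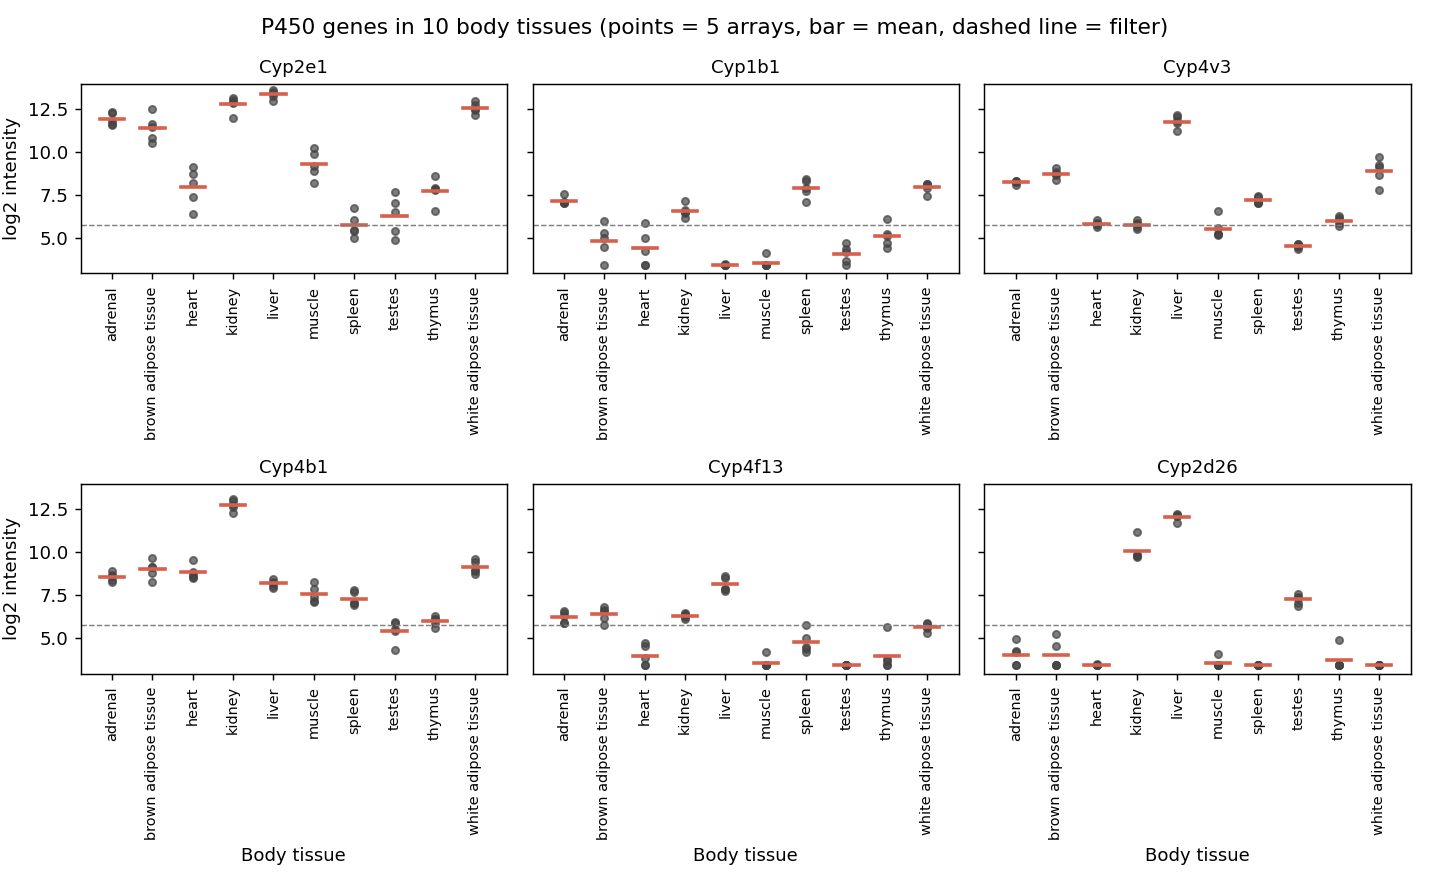
Log2 intensity of 6 P450 genes in the 10 body tissues, with 5 points per tissue (1 array per strain), the mean as a bar and the filter as a dashed line. Cyp2e1 is high in liver, kidney, white adipose tissue and adrenal, Cyp1b1 in spleen and white adipose tissue, and Cyp2d26 in liver, kidney and testes.

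Because the reference mean of those comparisons includes liver and kidney, the 8 tissues were also compared, a choice made after seeing the data, among themselves, each against the other 7. Of 16 members then tested, 12 were higher in at least 1 tissue, where 69.4% of all 8541 tested probe sets were, and 9 were lower in at least 1, where 59.8% were. Testes had 6 members lower, muscle, spleen and thymus 4 each, heart 3 and white adipose tissue 1. These are given without the share of all probe sets lower in each tissue, so they are a description. Adrenal had 8 members higher, brown adipose tissue 7 and white adipose tissue 6, against 8.66%, 12.6% and 11.9% of all. Testes had 3 higher (20.5% of all), heart, spleen and thymus 1 each (11.3%, 15.9% and 15.1%) and muscle 0 (12.9%). Cyp4b1 (103353_f_at) was then higher in white adipose tissue by 1.61 ± 0.19, in brown adipose tissue by 1.48 ± 0.19 and in heart by 1.26 ± 0.19. Cyp51 was higher in adrenal, a tissue that uses cholesterol, by 1.47 ± 0.18. Cyp2d26 was higher in testes by 3.61 ± 0.22 and Cyp2a12 by 1.67 ± 0.23. A probe set shared within subfamily 2A was higher in thymus by 2.45 ± 0.38, a tissue whose B6 array read 2190 for Alb.

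Neural tissue was compared with body tissue over the 34 tissue means. None of the 42 tested members was called higher in neural tissue by limma, where 14.1% of all tested probe sets were. In the other direction 11 were lower, where 13.6% were. The filter was passed by 41 members in a body tissue and by 14 in a neural tissue. Many were thus tested only through body tissue, so these counts are a description. Without any filter, the median neural minus body difference of the 50 members was -0.66, with 7 above 0. Over all 12422 probe sets it was -0.02, with 47.3% above 0. At an unadjusted p under 0.05, 19 of the 42 differed in either direction, against 59.1% of all. Cyp2e1 was lower in neural tissue by 4.30 ± 0.56 (limma adjusted p = 6.65e-08). Its 98 neural arrays ran from 14.8 to 96.3 with a median of 51.9, whereas the 40 arrays of the 8 body tissues other than liver and kidney ran from 29.1 to 8250 with a median of 453, so the ranges overlapped. Cyp4b1 was lower by 2.58 ± 0.41 and, with the shared probe set, by 2.60 ± 0.41. Cyp2d26 was lower by 1.99 ± 0.61, the shared 2A probe set by 1.86 ± 0.64 and Cyp1b1 by 1.64 ± 0.39. The call of the 2A probe set was lost without kidney, at -1.31, and that of Cyp1b1 with the higher floor, at -0.96. Without liver among the body tissues, 6 members were lower.

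Within the nervous system 15 members were tested, and 13 of these were higher in at least 1 tissue than in the mean of the other 23, where 48.7% of all 8501 tested probe sets were. Members that pass the filter only in the tissue where they are high had to differ, so the count says little. Cyp7b1 was higher in parts of the hippocampal formation. With the probe set 92898_at it read 139 to 206 on the 4 dentate gyrus arrays, 108 to 165 on the 5 of CA3 and 136 to 142 on the 3 of whole hippocampus, with medians of 166, 143 and 141. The median of the other arrays was 51.5 to 51.8, and the CA1 arrays read 69.6 to 132. The differences were 1.64 ± 0.15 in dentate gyrus, 1.39 ± 0.14 in CA3 and 1.35 ± 0.17 in hippocampus (limma adjusted p = 2.88e-15, 3.27e-14 and 2.42e-09). With the other probe set (161345_f_at) dentate gyrus was called at 1.10 ± 0.17, a call lost with the higher floor, at 0.98, and without B6 dentate gyrus replicate 1, at 0.97. Of all tested probe sets, 2.48% were called higher in dentate gyrus, 2.32% in CA3 and 2.2% in hippocampus.

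Cyp51 was higher in spinal cord and brainstem. In spinal cord it read 278 and 271 in 129 and 284 and 344 in B6, above all 94 other neural arrays. The difference was 1.71 ± 0.14 (limma adjusted p = 6.57e-18). It was also higher in medulla by 1.36 ± 0.14, in pons by 1.16 ± 0.14 and in the periaqueductal gray, labelled PAG, by 1.05 ± 0.14, a call lost without 129 PAG replicate 1, at 0.94. Of all tested probe sets, 4.33% were called higher in spinal cord, 2.54% in medulla, 2.42% in pons and 1.85% in PAG. It was lower in pituitary, where the 4 arrays read 25 to 40.3 (limma adjusted p = 3.82e-16), and was called lower in retina at -1.04 ± 0.14. The retina call was lost without B6 replicate 2 or 3, at -0.91 and -0.98. Of all tested probe sets, 12.1% were lower in retina and 12.5% in pituitary.

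Pituitary had 7 of the 15 tested members called higher, where 14.3% of all tested probe sets were. Cyp2f2 read 531 and 584 in 129 and 1130 and 944 in B6, above the other 94 neural arrays, which did not exceed 151. It was higher by 3.47 ± 0.14 (limma adjusted p = 4.87e-38). Cyp4a12b was higher in pituitary by 1.59 ± 0.16, Cyp4f13 by 1.09 ± 0.22 with 1 probe set (162058_f_at) and also with the other (limma adjusted p = 3.87e-09), Cyp4v3 by 1.29 ± 0.11, Cyp2s1 by 1.19 ± 0.23 and Cyp2c39 by 1.02 ± 0.16. The calls of Cyp4f13 were lost with the higher floor, at 0.65 and 0.72. Among neural tissues the probe set 162058_f_at passed the filter in pituitary alone, so its call there is a description. Cyp2s1 gave 0.18 with that floor, 0.88 after quantile normalization and 0.90 without 129 pituitary replicate 2, and was then not called. Cyp2c39 lost its call after quantile normalization (0.92), scaling to the 75th percentile (0.98), with the 3′ to 5′ signal ratio of Gapdh, a sign of RNA quality, as a covariate (0.99) and without 129 pituitary replicate 1 (0.89).

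In choroid plexus Cyp4f13 (104129_at) read 89.3 and 108 in 129 and 154 and 126 in B6, above the 94 other neural arrays, with a difference of 2.58 ± 0.22 (limma adjusted p = 1.73e-18). The other Cyp4f13 probe set was not called there, and 15.1% of all tested probe sets were. In striatum Cyp2s1, an enzyme of epithelia, read 66.9, 64.2, 73.3 and 75.4, above the 94 other neural arrays. The difference was 2.14 ± 0.23 (limma adjusted p = 1.17e-12), where 3.33% of all tested probe sets were higher. Striatum was the only neural tissue with Cyp2s1 past the filter. Cyp2s1 was thus tested only through its high value there, and the call is a description. Retina, whose arrays all came from B6, had Cyp2b10 higher by 1.21 ± 0.22, Cyp2a12 by 1.18 ± 0.18 and Cyp4b1 by 1.17 ± 0.16, where 14.5% of all were higher. The plain retina mean of Cyp2b10, its highest in a neural tissue, was 5.62 and lay under the filter. Cyp4f13 (104129_at) was called lower in entorhinal cortex at -1.04 ± 0.24, and the other probe set in midbrain-thalamus at -1.02 ± 0.22, where 1.35% and 1.6% of all were lower. Neither call held with the higher floor, at -0.12 and -0.11. The first was also lost after quantile normalization, at -0.95, and without DBA CA3 replicate 1 or DBA motor cortex replicate 1, at -0.97 and -0.98. The second was also lost with the Gapdh ratio as a covariate, at -0.98, and without B6 midbrain-thalamus replicate 1 or 2, at -0.87 and -0.98.

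**Figure D4:**
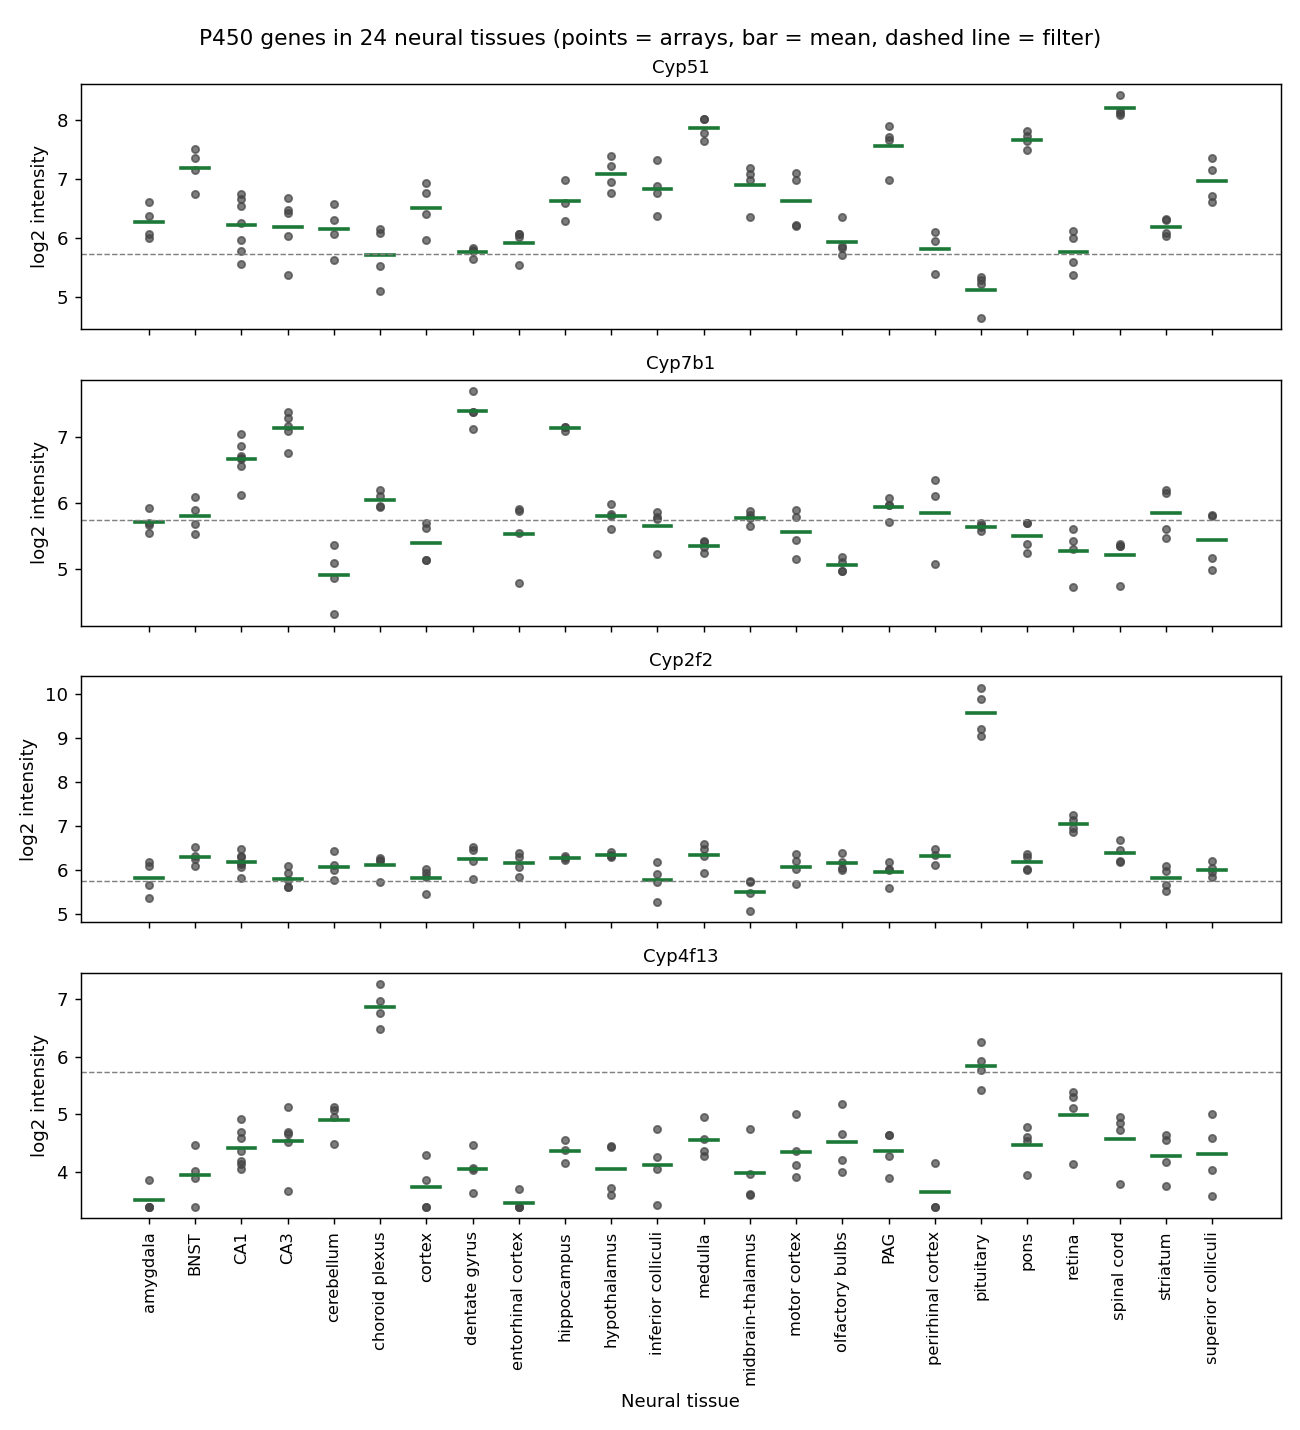
Log2 intensity of Cyp51, Cyp7b1 (92898_at), Cyp2f2 and Cyp4f13 (104129_at) in 24 neural tissues, with 1 point per array, the mean as a bar and the filter as a dashed line. Cyp51 is highest in spinal cord, medulla, pons and PAG, Cyp7b1 in dentate gyrus, CA3 and hippocampus, Cyp2f2 in pituitary and Cyp4f13 in choroid plexus.

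Strains were compared in liver and kidney, where each strain had 1 array per organ, so values within an organ carry no test. In liver 13 of the 38 members past the filter (34.2%) had at least 4-fold between the highest and the lowest strain, against 4.12% of 5601 probe sets. In kidney it was 5 of 23 (21.7%), against 3.46% of 5921. The liver count was 8 without the B6 array. That array was the lowest of the 5 for 24 of the 38 members and for 32.3% of all probe sets past the filter in liver. It is also the only liver array whose title carries the number 2000, which stands on 12 of the 50 body arrays, all of 129 or B6, and on the 129 and B6 kidney arrays. The labels do not say what the number means, and in liver it cannot be told apart from the strain B6.

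Among members past the filter, 3 probe sets of subfamily 4A showed the widest strain ranges in liver. Cyp4a14, known as a target of the fatty acid receptor PPARA, read 1240, 3270, 2100, 992 and 12.6, a 259-fold range. Cyp4a10 read 1420, 1630, 1700, 375 and 22.7, and the probe set shared within the subfamily read 1120, 1090, 1150, 223 and 30.6. With all 3 probe sets DBA was lowest and C3H next. In kidney Cyp4a14 read 159, 617, 281, 27.4 and 34.1, again with C3H and DBA lowest, while Cyp4a10 read 351 in DBA and 627 to 1320 in the others. The DBA liver array is the liver array with the kidney marker Kap at 623, against 25.3 to 42.4 on the others.

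Cyp4a12b and Cyp7b1 were both lowest in B6 liver. Cyp4a12b, a male-type hydroxylase, is also of subfamily 4A, but its liver range was 6.87-fold and DBA was not lowest. It read 4310, 2930, 628, 4200 and 3270 in liver and 412, 1740, 143, 1840 and 3200 in kidney. B6 was lowest in both organs, and 129 was low in kidney alone. Cyp7b1 (92898_at) read 1960, 774, 94.3, 1920 and 3090 in liver and 286, 505, 295, 1070 and 816 in kidney. The other probe set had the same lowest array in liver, at 71.4, and read 107 and 135 on the 129 and B6 kidney arrays and 246 to 511 on the rest. The arrays with the number 2000 in their titles, B6 liver, B6 kidney and 129 kidney, were thus the 3 lowest of the 10 for Cyp4a12b, and the lowest within each organ for Cyp7b1. The B6 liver and B6 kidney titles name the same animal or pool, so the low B6 values in both organs are not independent. As a term over all body tissues, the number gave Cyp4a12b -0.72 ± 0.46 (limma adjusted p = 0.574). It gave Cyp7b1 -1.02 ± 0.42 (92898_at) and -0.64 ± 0.42 (161345_f_at), with limma adjusted p of 0.299 and 0.584.

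Cyp2c39, a retinoic acid hydroxylase, split the strains into separate levels in liver, at 2450 and 2540 in 129 and AJ and at 214, 218 and 218 in B6, C3H and DBA. Its kidney arrays read 37.2 to 74.6 with no such split. Cyp2b10 read 144, 260, 282, 31.7 and 517 in liver. Cyp2b9, whose liver mean of 5.69 fell just under the filter and which was chosen after its values were seen, read 652 and 502 in AJ and B6 and at most 9.92 in the other strains. Among members just inside the filter in liver, the shared 4B probe set and Cyp2j5 had means of 5.83 and 5.84. Cyp3a16 read 111, 134, 332, 103 and 42.1. In kidney the shared 2A probe set read 2050, 2030, 510, 2050 and 3820, lowest in B6, and Cyp24a1 was lowest in AJ.

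**Figure D5:**
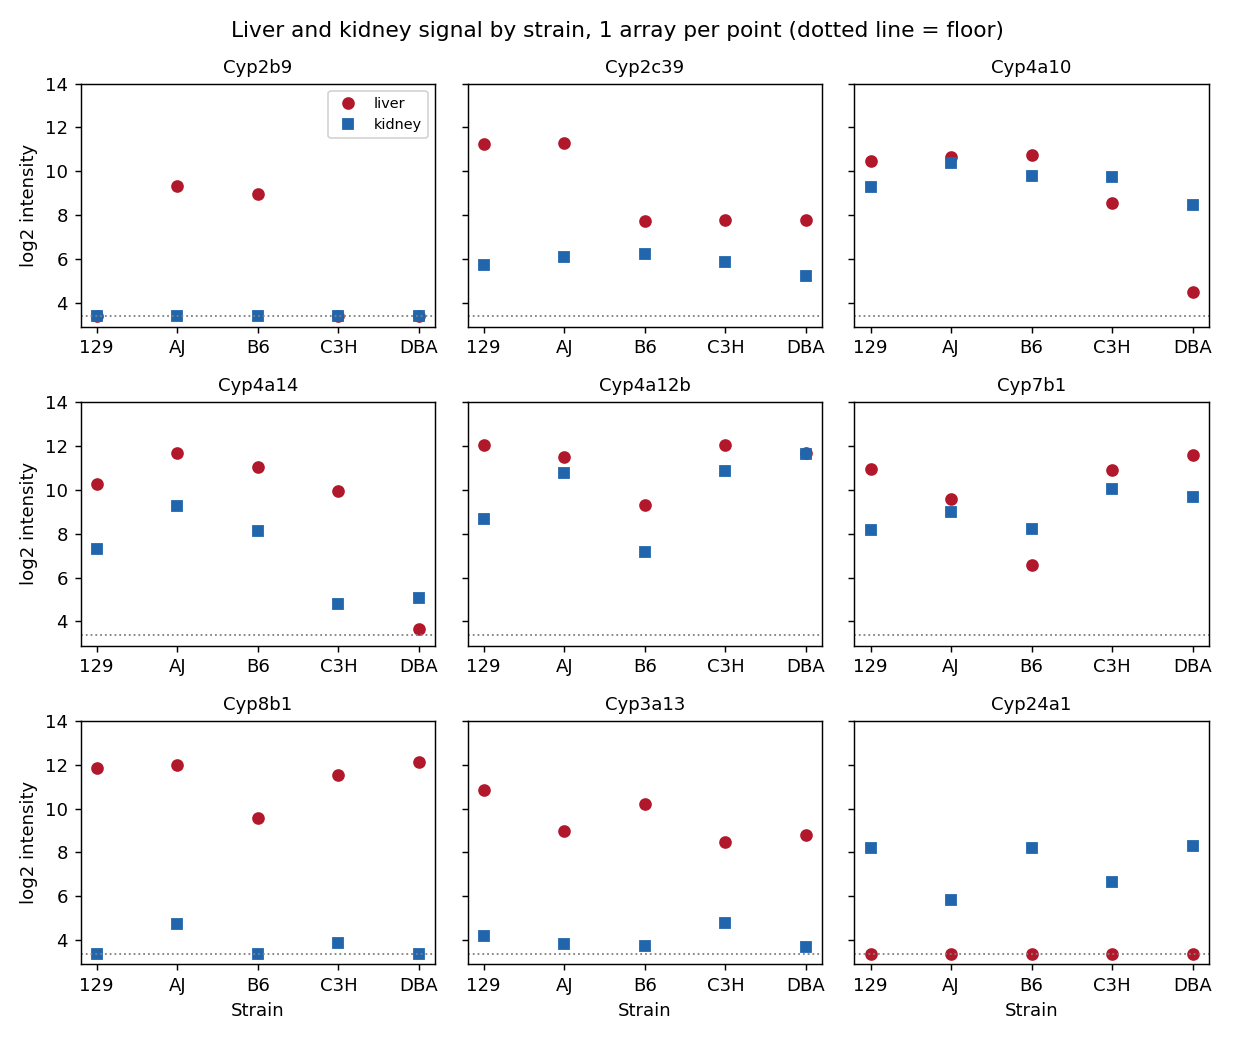
Log2 intensity of 9 P450 genes in liver (red circles) and kidney (blue squares) by strain, 1 array per point, with the floor as a dotted line. Cyp4a10 and Cyp4a14 are lowest in DBA liver, Cyp8b1, Cyp7b1 and Cyp4a12b in B6 liver, and Cyp2c39 is high in 129 and AJ liver.

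No P450 probe set was called for strain in the limma F test over liver and kidney with tissue as a term, where 0.674% of 6533 tested probe sets were. The lowest adjusted p of a member was 0.139, for Cyp4a12b, and that of Cyp4a14 was 0.152. At an unadjusted p under 0.05, 11 of 41 members differed (26.8%), against 18.9% of all. Without the DBA kidney array 3 members were called, Cyp4a14, Cyp4a10 and the shared 4A probe set, with adjusted p of 0.014, 0.0306 and 0.00676. Without the C3H and DBA kidney arrays, the ones with Alb above 200, there were 4, these and Cyp2b10. In these fits DBA, and in the second also C3H, rests on its liver array alone, which is assumed to vary like the rest. Over the 10 body tissues no member was called by the F test, where 2.68% of all tested probe sets were, and 3 of 41 had an unadjusted p under 0.05 (7.32%, against 29.6% of all).

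Between 129 and B6 in the 20 neural tissues that had both, no member among 13 tested passed the threshold of an adjusted p of 0.05 and 1.5-fold, where 0.692% of 8092 probe sets were higher in 129 and 1.77% higher in B6. At an unadjusted p under 0.05 there were 3 members (23.1%, against 33% of all). Cyp51 was higher in B6 by less than that fold, with a 129 minus B6 difference of -0.40 ± 0.06 (limma adjusted p = 2.3e-08). Cyp2s1 gave -0.37 ± 0.10 (limma adjusted p = 0.00286), and the third, Cyp4a12b, gave 0.16 ± 0.07 (limma adjusted p = 0.0906).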

How the data were processed

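Each deposited value is the intensity of a probe set on a linear scale, and 5.99% of the values lay below 0. For the authors' own steps (software, background correction, scale factor) nothing is stated, and no further scaling was done here. Values under the 20th percentile were set to it as a floor and then expressed as log2, which understates differences of dim genes. Of 12488 probe sets, 66 controls were left out. Symbols came from the platform's annotation, and 396 probe sets with several symbols named no gene. The arrays labelled 129 hippocampus replicate 1 and DBA perirhinal cortex replicate 2 held identical values and were left out, so 148 arrays were used. Titles name the same animal or pool on several arrays, 8 of them on 22 body arrays and 20 on 46 neural arrays, which the fits treat as independent. With these as a random block the estimated correlation was 0.04 over body and 0.16 over neural arrays.

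The fits used limma 3.58.1 (R 4.3.3, eBayes with trend) on all probe sets past the filter in at least 1 tissue of a fit, and were tested on simulated data. Among the members, Cyp2b10 in the fit of neural tissues was an exception, with no plain tissue mean past the filter. Differences are log2 ± SE. Named were the members with the largest called differences or strain ranges, up to 12 for liver, 10 for kidney, 8 for a strain range, 5 for liver against kidney and for neural tissue and 3 for any other tissue, and called genes of the partner and regulator lists. Others with values were chosen after their values were seen. The members and lists were chosen with earlier results of these data known.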

Additional observations from a re-analysis of the deposited data

Results flagged for a closer look

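In 98 groups of at least 4 arrays of a member, 15 had an array set apart from the rest by Dixon's test, which chance alone does in about 1 of 20 groups. Values are log2 intensities, followed by the nearest other array of the group. B6 liver was set apart on the low side with 7 probe sets, where 3.04% of all probe sets past the filter in liver were: Cyp2d10 at 12.17 against 13.01 (101287_s_at) and at 10.83 against 11.55 (98612_at), Cyp2d9 at 9.05 against 9.76, Cyp2d26 at 11.70 against 12.08, the shared 2D probe set at 11.55 against 12.61, Cyp4a12b at 9.29 against 11.52 and Cyp8b1 at 9.58 against 11.52. Strain and the number 2000 in the title cannot be told apart for this array. DBA liver was low for Cyp4a14 at 3.66 against 9.95 and for Cyp3a11 at 12.11 against 12.72.

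In kidney, B6 was low for Cyp2e1 at 12.01 against 12.84, and AJ was high for Cyp2d26 at 11.16 against 9.84. In adrenal, AJ was low for Cyp4v3 at 8.05 against 8.26 and B6 was high for Cyp1b1 at 7.55 against 7.10. In pituitary, 129 replicate 1 was high for Cyp2c39 at 7.40 against 6.92. In entorhinal cortex, 129 replicate 1 read 3.71 for Cyp4f13 while the rest lay at the floor of 3.38. The mean of that group, 3.46, was under the filter, and the floor made its other arrays equal, so this flag follows from the floor.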

How the results depend on the processing

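Alternatives changed the floor, the scaling, the filter, the probe sets per gene, the covariates and the arrays, and no called difference of a member changed sign in those run. Of 260 called pairs of member and comparison, 78 were no longer called with the floor at the 40th percentile, 17 after quantile normalization, 12 without arrays outside liver with Alb above 200, and 10 without those outside kidney with Kap above 200. With the floor at the 40th percentile, 3 members were higher in the other 8 body tissues and 7 lower in neural tissue. Without the liver and kidney arrays, 12 were higher in the other 8 body tissues. With 1 probe set per gene, 6 were lower in neural tissue and 3 had a kidney strain range past 4-fold. Without any filter 22 were higher in a neural tissue, and 4 without retina, pituitary and choroid plexus. Leaving out arrays or tissues in turn gave 6 to 14 lower in neural tissue, 8 to 13 past 4-fold in liver, 0 to 3 called for strain in liver and kidney, and 4 in that fit without the arrays with Alb above 200. The alternatives by Alb, by Kap, without liver or kidney arrays, without 3 neural tissues with the title number as a term and with the block were chosen after seeing the data. With the animal or pool as a random replicate block (estimated correlation 0.04 over body and 0.16 over neural arrays), the block left 36 members higher in liver, 19 in kidney and 13 in a neural tissue, and ended 2 calls, kidney Cyp1a2 and heart Cyp4a14, and no other in the fits it was run on. It was not run on the strain fit of liver and kidney, which share 1 named animal, or on the tissue means. Dim signal limits these results, since 20 members lay at the floor on most arrays.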
